A study of Mus musculus with 18 samples.

Results

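The genes described here encode the phagocyte NADPH oxidase: *Cybb*, *Cyba*, *Ncf1*, *Ncf4* and *Rac2*, with *Nox4*, an oxidase of other cells, for contrast. These 6 genes were chosen by name from the 25124 genes listed in the deposited tables. Messenger RNA was measured by bulk RNA sequencing of 3 adipose depots, the inguinal (iWAT) and epididymal (eWAT) white depots and the brown depot (BAT). The samples came from male wildtype (WT) mice and mice lacking caspase-6 in the whole body (C6KO), and each genotype had 3 libraries in each depot, for a total of 18. The study took the C6KO line from The Jackson Laboratory, kept it on a C57BL/6J background and bred heterozygotes, so that both genotypes were littermates. Which part of *Casp6* is deleted is not given in the sources used here. All mice in these libraries ate a high fat diet with 60% fat (HFD) for 12 weeks, begun at an age of 10 to 14 weeks, and were fasted before tissues were taken. C6KO is a global deletion, so a change in one tissue need not arise in that tissue, and no library came from chow-fed mice. Whether libraries of different depots came from the same animals is not given in the labels. Tests across depots treated the 18 libraries as independent, which would not hold if animals were shared. Each p-value sets a difference against the spread between these libraries.

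In phagocytes such as macrophages and neutrophils, the oxidase passes electrons from NADPH across a membrane to oxygen and so makes superoxide. Its core is a membrane pair, the catalytic subunit encoded by *Cybb* and the partner encoded by *Cyba*. Cytosolic subunits, those encoded by *Ncf1* and *Ncf4* among them, and the GTPase Rac2 join this core when the cell is activated. Nox4 also pairs with the *Cyba* product but needs no cytosolic subunit, and it is found in fibroblasts, endothelial cells, smooth muscle and adipocytes. In obese adipose tissue, macrophages accumulate and are the main cells known to carry the phagocyte enzyme.

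Promoter sequences of *Cybb*, *Cyba*, *Ncf1* and *Nox4* are shown because the transcription factor PU.1, encoded by *Spi1*, is known to act at phagocyte oxidase promoters and these genes are set side by side below. They are RefSeq sequences of GRCm38.p6 (the mm10 build), written 5′ to 3′ on the strand of the gene, from 250 bases before the transcription start to 30 bases after it. The core motif GAGGAA of PU.1 was searched on both strands over 250 bases before and 50 bases after the start, and a match is in capitals. The 4 windows are *Cybb* at chrX:9469295-9469574 on the minus strand, *Cyba* at chr8:122432911-122433190 on the minus strand, *Ncf1* at chr5:134229596-134229875 on the minus strand and *Nox4* at chr7:87246399-87246678 on the plus strand.
Cybb: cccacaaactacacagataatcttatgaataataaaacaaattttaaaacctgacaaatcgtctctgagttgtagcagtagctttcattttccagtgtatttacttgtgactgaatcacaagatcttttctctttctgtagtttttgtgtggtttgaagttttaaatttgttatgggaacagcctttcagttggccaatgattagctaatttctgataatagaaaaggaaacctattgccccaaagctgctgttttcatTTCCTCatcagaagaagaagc
Cyba: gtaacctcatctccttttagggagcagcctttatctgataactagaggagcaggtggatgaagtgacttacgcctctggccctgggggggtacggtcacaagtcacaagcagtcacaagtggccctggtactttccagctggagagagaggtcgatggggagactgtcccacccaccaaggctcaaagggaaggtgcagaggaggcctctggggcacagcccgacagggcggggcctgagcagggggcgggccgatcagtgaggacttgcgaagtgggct
Ncf1: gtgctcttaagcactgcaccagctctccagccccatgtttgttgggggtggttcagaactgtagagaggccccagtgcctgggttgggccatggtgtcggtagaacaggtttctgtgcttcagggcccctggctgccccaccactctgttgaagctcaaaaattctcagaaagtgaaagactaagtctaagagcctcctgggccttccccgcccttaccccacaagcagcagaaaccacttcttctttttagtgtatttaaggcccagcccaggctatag
Nox4: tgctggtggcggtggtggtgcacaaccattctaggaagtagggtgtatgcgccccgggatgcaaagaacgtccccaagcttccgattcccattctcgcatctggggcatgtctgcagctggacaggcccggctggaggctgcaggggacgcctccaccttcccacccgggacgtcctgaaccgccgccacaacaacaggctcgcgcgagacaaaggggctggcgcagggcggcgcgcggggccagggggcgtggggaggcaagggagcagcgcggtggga
The search found 1 exact match, on the reverse strand of *Cybb* and starting 9 bases after the transcription start. The other 3 windows held none. Sequences that differ from GAGGAA were not searched, so unmarked stretches are not shown to lack a PU.1 site. Of 32851 promoters of this length in the same source, 28.3% held the motif. The GC content was 35.3% for *Cybb*, 54.0% for *Ncf1*, 60.7% for *Cyba* and 68.3% for *Nox4*, and the median promoter had 52.7%. *Ncf4* and *Rac2* were not shown.

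Total counts ran from 16506034 to 19043523 in iWAT, from 16717201 to 19139694 in eWAT, and in BAT from 7803108 to 12428683, so BAT values rest on fewer reads. *Casp6*, the deleted gene, was lower in C6KO than in WT without overlap in each depot. By the fitted fold change it stood at 35.1% (iWAT), 27.7% (eWAT) and 35.3% (BAT) of WT, so reads from the locus remained. Its log2 fold changes were -1.51 ± 0.20, -1.85 ± 0.19 and -1.50 ± 0.33 in the same order (edgeR adjusted p = 0.0751, 0.0132 and 0.0671). The summed level of 16 macrophage markers was 648, 678 and 1791 CPM (read counts scaled to library size) in iWAT C6KO replicates 1 to 3, against 2414, 2563 and 2798 CPM in the 3 WT libraries. C6KO replicate 3 of iWAT therefore stood apart from its own group. The iWAT fold changes of the 5 phagocyte members and some depot contrasts are given without it too. The iWAT values of other genes and of the gene lists are given only with it. Without it the genes called in iWAT rose from 4 to 1278. That library was picked out by markers that moved with the members, and it was the C6KO library nearest to WT. Leaving it out was therefore bound to enlarge the members' differences, so p-values without it are descriptive only. When any other single iWAT library was left out, 0 members were called. WT replicate 2 of BAT held 65.2 CPM of 4 B cell markers and 37.6 CPM of T cell markers, against at most 3.43 and 6.50 CPM in the other 5 BAT libraries. In eWAT, the B cell markers reached 51.3, 129.7 and 185 CPM in WT replicate 2, WT replicate 3 and C6KO replicate 3, against 7.33 to 10.9 CPM in the other 3.

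Each member was compared between C6KO and WT within a depot by edgeR's quasi-likelihood test. A gene was called where its adjusted p over all genes was below 0.05 and its fold change was at least 1.5. Over all genes tested, 0.0206% (iWAT), 0.208% (eWAT) and 1.07% (BAT) were called lower in C6KO, and 0.00688%, 0.537% and 0.169% were called higher. Of the 5 phagocyte members, 0 were called in either white depot, iWAT or eWAT, and 1 was called in BAT, where *Cybb* fell. At an unadjusted p below 0.05 the same test gave 5 lower members (iWAT), 3 (eWAT) and 5 (BAT), against 9.29%, 7.82% and 8.64% of all genes. DESeq2 at the same thresholds called 4 (iWAT), 1 (eWAT) and 3 (BAT) lower, against 3.42%, 1.23% and 2.65% of all genes. All C6KO libraries lay below all WT libraries for 5 (iWAT), 3 (eWAT) and 4 (BAT) members, against 12.2%, 11.2% and 12.1% of all genes. The median log2 fold change of the 5 members was -1.24 (iWAT), -0.51 (eWAT) and -1.23 (BAT), and that of all genes was 0.03, -0.01 and -0.03. All 15 estimates were below 0. In bulk tissue, fewer cells of a type and less RNA per cell cannot be told apart.

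**Figure D1:**
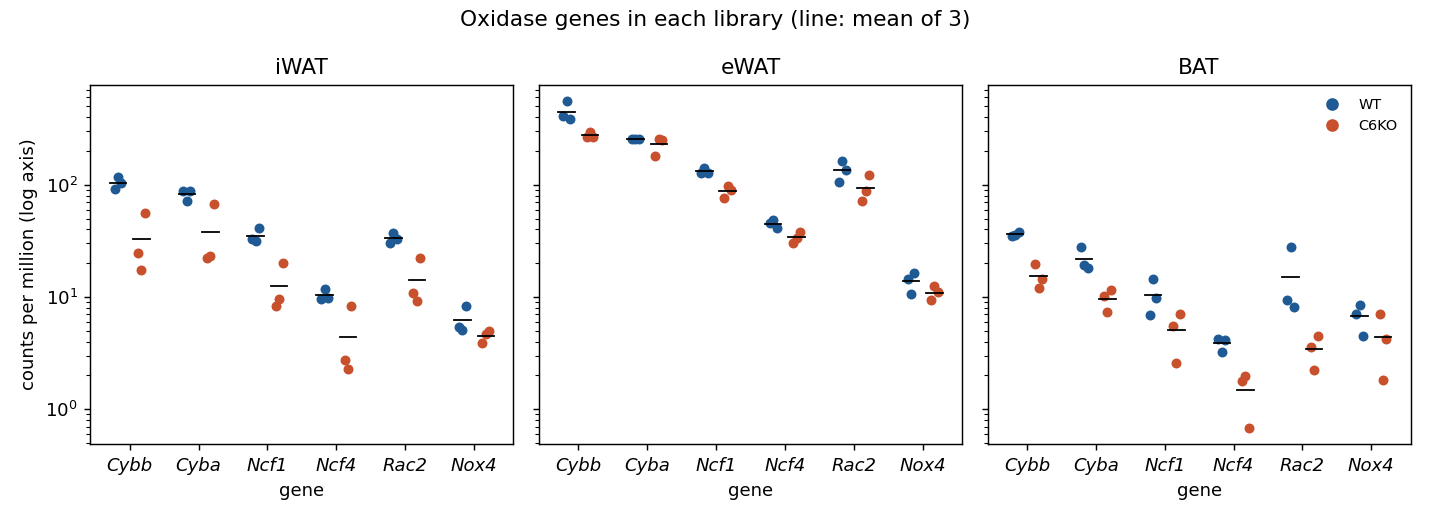
CPM (log axis) of the 6 oxidase genes in each library of iWAT, eWAT and BAT, with WT in blue and C6KO in orange, points as single libraries and lines as means of 3. In iWAT the C6KO points of the 5 phagocyte genes lie below the WT points with replicate 3 closest to them, and in eWAT *Cyba* and *Rac2* overlap.

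*Cybb*, the catalytic subunit, lies on chromosome X from 9435254 to 9469324 on the minus strand (mm10), and its counted exons span 4735 bases. In iWAT it measured 91.9, 118 and 103 CPM in WT and 24.8, 17.3 and 56.3 CPM in C6KO. The groups did not overlap, and the C6KO libraries differed among themselves more than the WT ones. The log2 fold change was -1.67 ± 0.42 (SE, n = 3 per group; edgeR adjusted p = 0.168), a level of 31.5% of WT that did not pass the test. Without C6KO replicate 3 it was -2.33 (edgeR adjusted p = 0.000276) and passed. In eWAT, *Cybb* measured 406, 554 and 385 CPM in WT and 269, 296 and 265 CPM in C6KO. These groups did not overlap either, and the estimate of -0.70 ± 0.15 missed the threshold (edgeR adjusted p = 0.0588). In BAT it measured 34.6, 35.7 and 37.8 CPM in WT and 19.5, 12.01 and 14.5 CPM in C6KO. The WT libraries lay close together and every C6KO library was below them. *Cybb* fell to 42.5% of WT in BAT, a log2 fold change of -1.23 ± 0.20 (edgeR adjusted p = 0.0249). The BAT call was lost without WT replicate 1 (edgeR adjusted p = 0.0582), WT replicate 3 (0.0808), C6KO replicate 2 (0.118) or C6KO replicate 3 (0.124), while the log2 fold change stayed between -1.41 and -1.06 whichever library was left out.

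*Cyba*, whose product holds the catalytic subunit in the membrane and partners Nox4 as well, lies on chromosome 8 from 122424771 to 122432940 on the minus strand. In iWAT it measured 87.7, 72.0 and 87.3 CPM in WT and 22.0, 22.9 and 68.0 CPM in C6KO. C6KO replicate 3 came close to the lowest WT library without overlap, and the log2 fold change of -1.13 ± 0.45 did not pass the test (edgeR adjusted p = 0.279). It was -1.89 without that library (edgeR adjusted p = 0.000175). In eWAT, *Cyba* measured 254, 256 and 258 CPM in WT and 181, 257 and 249.6 CPM in C6KO. Here the groups overlapped, with 1 low C6KO library, and the estimate was -0.16 ± 0.14 (edgeR adjusted p = 0.624). In BAT it measured 27.9, 19.3 and 18.3 CPM in WT and 10.2, 7.37 and 11.5 CPM in C6KO. The BAT groups did not overlap, and the log2 fold change of -1.17 ± 0.25 missed the threshold by edgeR (adjusted p = 0.0598) and passed by DESeq2 (adjusted p = 0.00377).

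*Ncf1*, the organizer subunit that carries the activating phosphorylation, lies on chromosome 5 from 134220259 to 134229625 on the minus strand. Its exons overlap those of *Gtf2ird2* on the other strand in GENCODE M21, and since strand was not stated for the counting, reads of the pair cannot be told apart there. It measured 33.2, 31.6 and 40.9 CPM in iWAT WT and 8.29, 9.50 and 19.9 CPM in iWAT C6KO. The groups were apart, and the log2 fold change was -1.49 ± 0.32 (edgeR adjusted p = 0.154), or -2.00 without C6KO replicate 3 (edgeR adjusted p = 0.000359). In eWAT it measured 128, 142 and 126 CPM in WT and 76.7, 98.3 and 89.1 CPM in C6KO. These groups were also apart, with an estimate of -0.58 ± 0.12 (edgeR adjusted p = 0.0535). This just missed both the p threshold and, at 1.498-fold, the 1.5-fold minimum. In BAT, where the deposited table lists another *Ncf1* transcript, it measured 6.85, 14.4 and 9.70 CPM in WT and 5.56, 2.57 and 7.01 CPM in C6KO. The groups overlapped, and the log2 fold change was -1.04 ± 0.40 (edgeR adjusted p = 0.314), or -0.72 without WT replicate 2 (edgeR adjusted p = 0.484).

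*Ncf4* encodes the cytosolic subunit that binds phosphoinositides of the phagosome, and lies on chromosome 15 from 78244811 to 78262580 on the plus strand. In iWAT it measured 9.60, 11.7 and 9.73 CPM in WT and 2.75, 2.29 and 8.27 CPM in C6KO. The groups did not overlap, and the log2 fold change was -1.22 ± 0.46 (edgeR adjusted p = 0.250), or -2.06 without C6KO replicate 3 (edgeR adjusted p = 0.00177). In eWAT the values were 45.7, 48.3 and 41.0 CPM in WT and 30.3, 33.9 and 38.2 CPM in C6KO. The groups were apart by a small margin, with an estimate of -0.40 ± 0.12 (edgeR adjusted p = 0.131). In BAT it measured 4.26, 3.26 and 4.10 CPM in WT and 1.77, 1.99 and 0.681 CPM in C6KO, from raw counts of 33, 37 and 41 and of 15, 24 and 7. The genotypes did not overlap, and the log2 fold change of -1.38 ± 0.44 did not pass (edgeR adjusted p = 0.201).

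*Rac2* encodes the GTPase of the complex in blood cells and is also expressed by lymphocytes. It lies on chromosome 15 from 78559169 to 78572783 on the minus strand. In iWAT it measured 30.1, 37.0 and 33.1 CPM in WT and 10.9, 9.23 and 22.4 CPM in C6KO. The groups did not overlap, and the log2 fold change was -1.24 ± 0.32 (edgeR adjusted p = 0.166), or -1.75 without C6KO replicate 3 (edgeR adjusted p = 0.000553). In eWAT the values were 105, 162 and 135 CPM in WT and 71.4, 88.0 and 122 CPM in C6KO. The groups overlapped through C6KO replicate 3, one of the libraries with high B cell markers, and the estimate was -0.51 ± 0.22 (edgeR adjusted p = 0.284). In BAT *Rac2* measured 9.43, 27.9 and 8.20 CPM in WT and 3.55, 2.24 and 4.48 CPM in C6KO. WT replicate 2, the library with high B and T cell markers, stood above the other WT libraries. With it the log2 fold change was -2.16 ± 0.54 (edgeR adjusted p = 0.130), and without it -1.36 (edgeR adjusted p = 0.112). The part of lymphocytes in this value was not tested. *Rac1*, the GTPase of the same family that most cells express, overlapped between genotypes in every depot, with log2 fold changes of -0.02 ± 0.12 (iWAT), -0.08 ± 0.10 (eWAT) and -0.14 ± 0.16 (BAT) (edgeR adjusted p = 0.957, 0.772 and 0.762). Exons of *Rac1* overlap *Daglb* on the other strand.

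*Nox4*, on chromosome 7 from 87246649 to 87398708 on the plus strand, was called in 0 of 3 depots by edgeR and 0 by DESeq2, and its unadjusted p was below 0.05 in 0. In iWAT it measured 5.42, 5.05 and 8.28 CPM in WT and 3.92, 4.70 and 4.93 CPM in C6KO. The groups were just apart, and the log2 fold change was -0.47 ± 0.27 (edgeR adjusted p = 0.424). In eWAT it measured 14.3, 10.7 and 16.2 CPM in WT and 9.43, 12.5 and 10.96 CPM in C6KO. In BAT it measured 7.11, 8.55 and 4.499 CPM in WT and 7.10, 1.82 and 4.19 CPM in C6KO. The genotypes overlapped in eWAT and BAT, with estimates of -0.33 ± 0.19 and -0.63 ± 0.47 (edgeR adjusted p = 0.437 and 0.630). These estimates were also below 0, and their errors do not show that *Nox4* was alike in WT and C6KO. A difference between the effect on *Nox4* and that on the phagocyte genes was not tested.

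**Figure D2:**
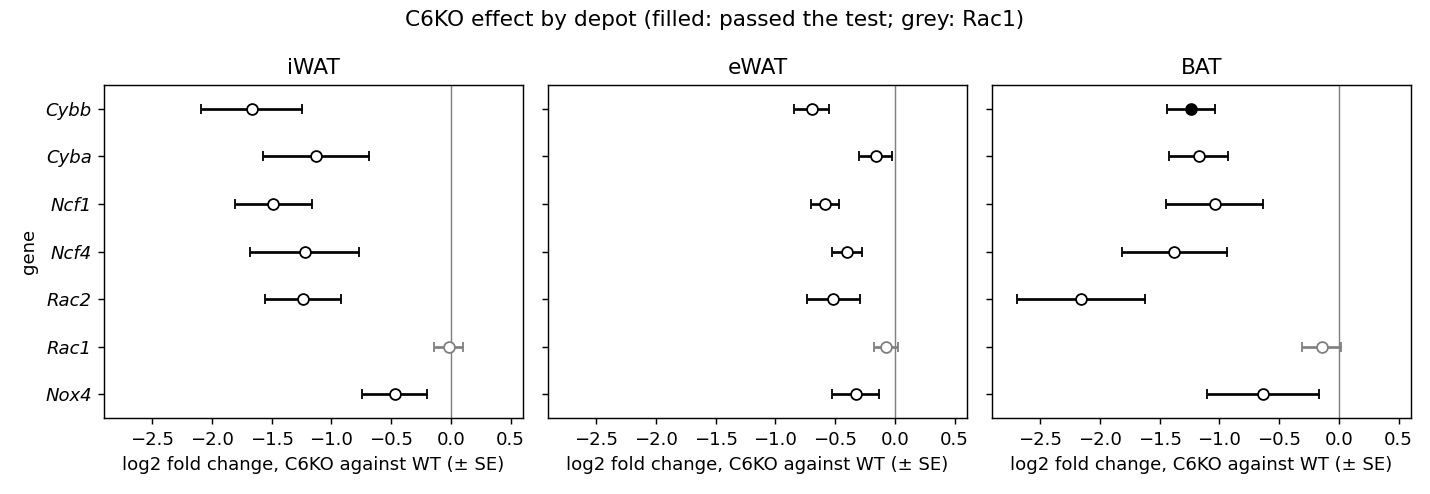
Log2 fold change of C6KO against WT (x axis, bars ± SE, 3 libraries per group) for the members and, in grey, the related GTPase gene *Rac1*, with filled points for genes that passed the test. *Cybb* in BAT, at -1.23, is the one filled point, and *Rac1* lies between -0.14 and -0.02 in the 3 depots.

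Whether the C6KO effect differed between depots was tested as an interaction in a fit of all 18 libraries. No depot difference was called for any of the 6 members, by edgeR or DESeq2, in iWAT against eWAT, iWAT against BAT or eWAT against BAT. Among all genes, 0.00%, 0.183% and 0.536% were called in these contrasts, and 5.48%, 9.93% and 11.2% had an unadjusted p below 0.05. At that unadjusted level, 1 member differed between iWAT and eWAT, 0 between iWAT and BAT and 1 between eWAT and BAT. The first was *Cybb*, whose log2 fold change was lower in iWAT than in eWAT by -0.97 ± 0.43 (edgeR adjusted p = 0.896). The second was *Rac2*, whose effect in eWAT minus that in BAT was 1.65 ± 0.62 (edgeR adjusted p = 0.310), and this difference was 0.89 without WT replicate 2 of BAT (adjusted p = 0.517). Without C6KO replicate 3 of iWAT, 3 members were called as lower in iWAT than in eWAT. These were *Cybb* at -1.62 (edgeR adjusted p = 0.00337), *Cyba* at -1.72 (adjusted p = 0.00264) and *Ncf4* at -1.64 (adjusted p = 0.0139). The share of all genes called in this contrast without that library was not computed, so the 3 calls cannot be set against it. Whether a depot difference was called for *Cybb*, *Cyba* and *Ncf4* thus depended on that library.

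Levels were then compared between WT depots on the same 18-library scale. *Cybb*, *Cyba*, *Ncf1*, *Ncf4* and *Rac2* were highest in eWAT, lower in iWAT and lowest in BAT by their means. In WT, *Cybb* stood at 85.9 ± 17.0 CPM per kilobase of transcript in eWAT, 22.2 ± 2.84 in iWAT and 8.35 ± 0.41 in BAT (SD, n = 3). *Cyba* stood at 309 ± 1.75, 111 ± 11.7 and 32.0 ± 8.63 on the same per-length scale. By edgeR, 6 of 6 members were called lower in iWAT than in eWAT, from -1.97 ± 0.36 for *Ncf4* to -0.98 ± 0.35 for *Nox4* on the log2 scale, against 25.7% of all genes called in either direction. The call of *Nox4* was lost without WT replicate 1 or 2 of iWAT or WT replicate 1 or 3 of eWAT (edgeR adjusted p = 0.125, 0.135, 0.0925 and 0.126). Between iWAT and BAT, *Cybb* (1.41 ± 0.31), *Cyba* (1.79 ± 0.36) and *Ncf4* (1.30 ± 0.38) were called higher in iWAT, against 38.7% of all genes. *Rac2* was not called in that contrast (1.02 ± 0.41, edgeR adjusted p = 0.0555) but was without WT replicate 2 of BAT (1.78, adjusted p = 0.00122) and without C6KO replicate 3 of iWAT (adjusted p = 0.0337). Between eWAT and BAT, *Cybb* (3.36 ± 0.33), *Cyba* (3.28 ± 0.37), *Ncf4* (3.27 ± 0.39) and *Rac2* (2.87 ± 0.43) were called higher in eWAT, against 48.6% of all genes. *Ncf1* was left untested against BAT because the tables list different transcripts, of 2751 bases in iWAT and eWAT and 2709 bases in BAT. *Nox4* had its own order, with 3.35 ± 0.69 CPM per kilobase in eWAT, 1.97 ± 0.57 in BAT and 1.69 ± 0.48 in iWAT, and the contrasts with BAT were not called (edgeR adjusted p = 0.632 for iWAT and 0.0741 for eWAT). The contrast of eWAT with BAT was called without C6KO replicate 1 or 2 of BAT (adjusted p = 0.0416 and 0.0265). Depot and deposited table cannot be told apart.

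Within a depot, the per-length levels in WT ranked the subunits in a similar way. *Cyba* was the highest member in all 3 depots and *Nox4* the lowest. In iWAT, *Cyba* was followed by *Cybb*, then *Ncf1* (12.9 ± 1.80 CPM per kilobase) and *Rac2* (11.1 ± 1.20), which overlapped each other, then *Ncf4* (7.25 ± 0.87) and *Nox4*. In eWAT the order was the same, and of those neighbours *Ncf1* (43.5 ± 2.50) and *Rac2* (40.1 ± 8.17) overlapped, while *Rac2* and *Ncf4* (28.3 ± 2.28) did not. In BAT the libraries of *Cybb* and *Rac2*, *Rac2* and *Ncf1*, *Ncf1* and *Ncf4*, and *Ncf4* and *Nox4* overlapped. *Rac1* ran at 146 ± 7.52, 163 ± 4.76 and 118 ± 17.9 CPM per kilobase in iWAT, eWAT and BAT, above every member but *Cyba* in eWAT.

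**Figure D3:**
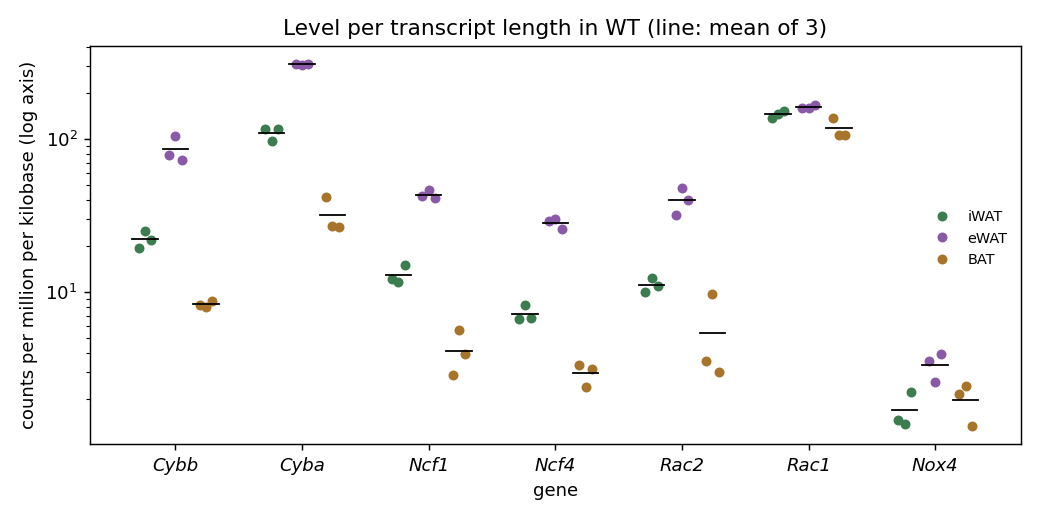
CPM per kilobase of transcript (log axis) in the 3 WT libraries of each depot for the members and *Rac1*, with points as libraries and lines as means. For *Cybb* the mean was 85.9 in eWAT, 22.2 in iWAT and 8.35 in BAT, whereas *Rac1* spans 118 to 163 and *Nox4* 1.69 to 3.35.

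The macrophage markers moved with the phagocyte members, and their part in the members' values was not tested. Of 16 markers, 0 were called lower in iWAT and 6 in BAT, with iWAT, eWAT and BAT medians of -1.38, -0.58 and -1.08 (log2), and at an unadjusted p below 0.05 the counts were 13, 14 and 11. The 6 in BAT included *Adgre1*, which encodes the macrophage surface protein of that name (-1.79 ± 0.22), *Cd68* (-2.01 ± 0.25), the lipid-associated macrophage receptor gene *Trem2* (-3.58 ± 0.47) and *Itgax* (-3.17 ± 0.31), with edgeR adjusted p between 0.00388 and 0.0132, as well as *Lyz2* and *C1qc*. The summed macrophage markers measured 9261, 11417 and 9048 CPM in eWAT WT and 5562, 7538 and 6809.6 CPM in C6KO. In BAT they measured 1175, 921 and 1021 CPM in WT and 567, 399 and 515 CPM in C6KO. C6KO was below WT in every library of all 3 depots.

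Neutrophils, the other cell type rich in the enzyme, were scarcely seen. Of 11 neutrophil markers, 4, 4 and 3 were abundant enough to test in iWAT, eWAT and BAT, and edgeR called 0 and DESeq2 1. The latter was *Elane*, the neutrophil elastase gene, named after its values were seen, which averaged 0.174 ± 0.103 CPM in iWAT WT and 1.496 ± 0.797 CPM in C6KO (log2 fold change 3.06 ± 0.71, edgeR adjusted p = 0.154, DESeq2 adjusted p = 0.0141). *Elane* was also the only tested neutrophil marker with an unadjusted p below 0.05 by edgeR in the 3 depots. *Ly6g* had no count in any depot and *Camp* none in BAT. The summed neutrophil markers were 6.66 to 15.96 CPM (iWAT), 19.9 to 40.2 CPM (eWAT) and 4.56 to 9.46 CPM (BAT), and overlapped between genotypes in eWAT and BAT. In iWAT they were below WT in each C6KO library, although replicate 3 was level with the lowest WT library at 14.8 CPM. The T cell and B cell sums overlapped between genotypes in all 3 depots, respectively at 3.17 to 13.6 and 2.40 to 13.7 CPM (iWAT), 6.17 to 71.2 and 7.33 to 185 CPM (eWAT), and 1.99 to 37.6 and 1.17 to 65.2 CPM (BAT).

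The 5 leukocyte markers and the fibroblast markers moved the same way. Summed leukocyte markers were 397, 455 and 462 CPM in iWAT WT against 118, 111 and 304 CPM in C6KO, 1445, 1912 and 1659 against 1147, 1166 and 1344 CPM in eWAT, and 179.6, 268 and 139 against 63.9, 45.6 and 59.5 CPM in BAT. In BAT, 4 of the 5 fell (*Cd52*, *Cd53*, *Coro1a* and *Laptm5*), against 1.07% of all genes. Fibroblast and progenitor markers summed to 4686 to 4776 CPM in iWAT WT and 1701 to 3164 in C6KO, to 7148 to 9049.7 and 5590.3 to 6841 CPM in eWAT, and to 1048 to 1670.2 and 608 to 748 CPM in BAT, where *Col3a1* and *Lum* fell. The summed adipocyte markers, at 20645 to 23448 CPM in iWAT WT and 28665 to 30029 in C6KO, and 8848 to 10433 and 12312 to 15571 CPM in eWAT, were higher in every C6KO library of these depots. *Plin1* (0.62 ± 0.11) and *Lipe* (0.72 ± 0.12) rose in eWAT (edgeR adjusted p = 0.0468 and 0.0432). In BAT the adipocyte sums overlapped, at 13787 to 21964 CPM in WT and 15921 to 18364 in C6KO, as did the brown adipocyte sums, at 5623 to 12615 and 7157 to 10692 CPM. Smooth muscle and pericyte sums overlapped in every depot, at 604 to 2658 CPM. Endothelial sums overlapped in iWAT, at 918 to 1379 CPM, and were higher in every C6KO library of eWAT (500.2 to 559 against 687 to 857 CPM) and of BAT (743 to 929 against 1028 to 1037 CPM).

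**Figure D4:**
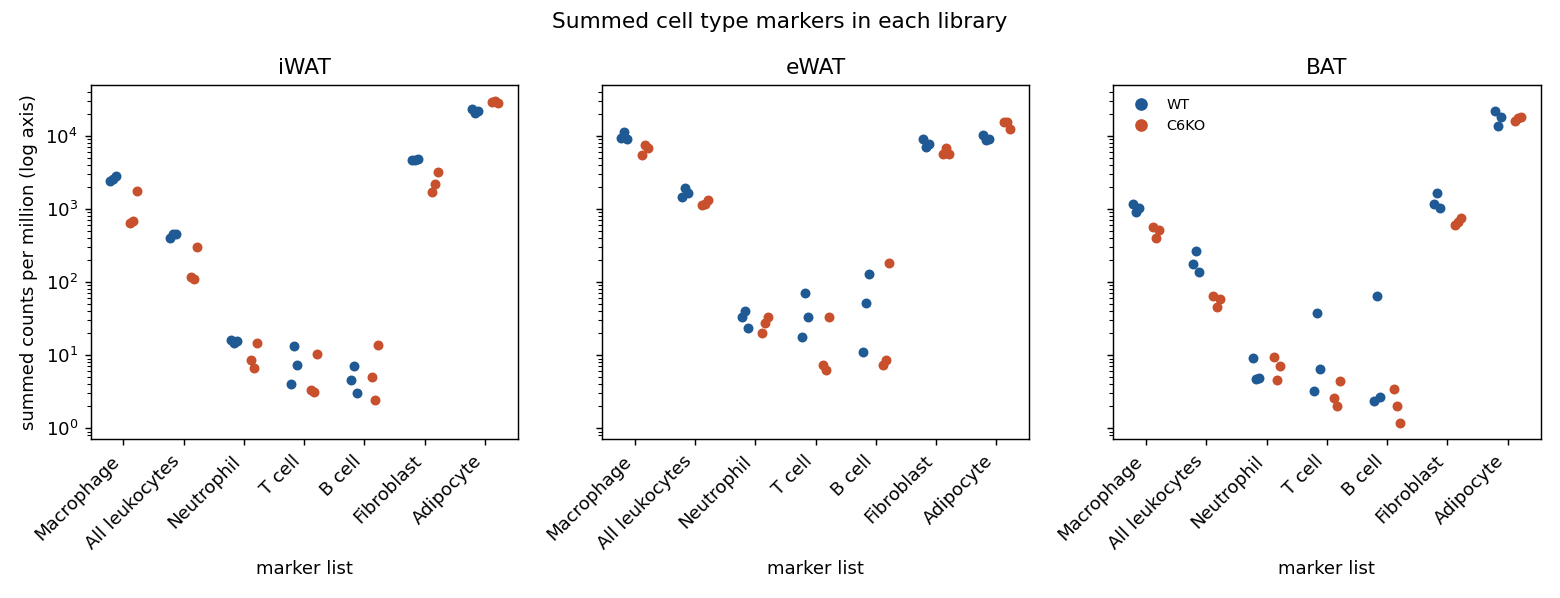
Summed CPM (log axis) of 7 marker lists in each library of the 3 depots, with WT in blue and C6KO in orange. Macrophage, leukocyte and fibroblast sums are lower in every C6KO library, and the B cell sum of 65.2 in 1 WT library of BAT stands above the other 5.

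To set the members against the macrophage markers within each library, the mean log2 level of the 16 markers was subtracted from that of each member, with 0.5 added to the CPM. On this relative scale, WT and C6KO overlapped for 5 of 5 phagocyte members in iWAT and in BAT and for 4 of 5 in eWAT. How many of all genes overlap on this scale was not computed, so these counts cannot be set against a background. For the phagocyte members, differences between the C6KO and WT means ran from -0.34 to 0.18 (iWAT), -0.08 to 0.42 (eWAT) and -0.71 to 0.11 (BAT). By depot in the same order, *Cybb* differed by -0.34, -0.08 and -0.12, *Ncf1* by -0.06, 0.01 and 0.11, and *Ncf4* by 0.15, 0.20 and -0.10. The value of -0.71 belongs to *Rac2* in BAT, where WT replicate 2 stood at -0.23 and the other 5 libraries between -2.44 and -1.89. *Cyba* in eWAT was the member without overlap, at -0.40, -0.69 and -0.33 in WT and -0.11, -0.06 and 0.02 in C6KO. *Nox4* relative to these markers was higher in C6KO by 1.08 (iWAT), 0.30 (eWAT) and 0.43 (BAT), with overlap in each depot. Relative to the 5 leukocyte markers instead, the groups were apart for *Cybb* in iWAT (-0.39), *Cyba* in eWAT (0.40) and BAT (0.66) and *Nox4* in BAT (1.11), and *Rac2* in BAT differed by -0.03. No test was run on these scales, and markers and members share the library they were measured in.

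**Figure D5:**
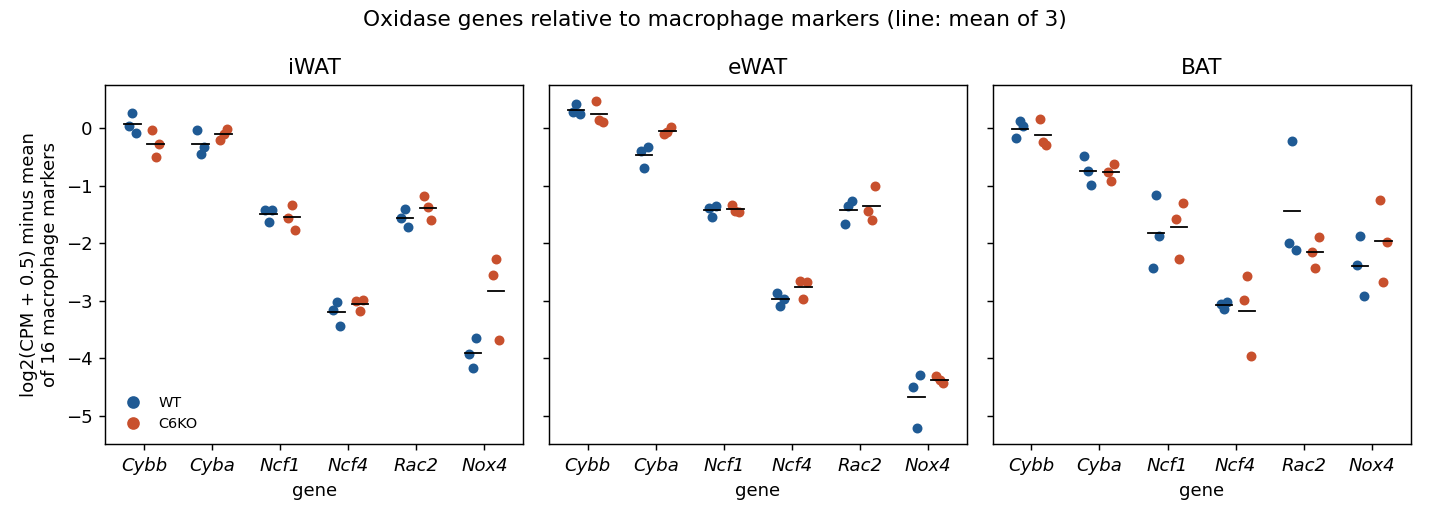
Log2(CPM + 0.5) of each member minus the mean of 16 macrophage markers (y axis) in each library, with WT in blue, C6KO in orange and lines as means of 3. The groups overlap except for *Cyba* in eWAT, where C6KO lies 0.42 above WT.

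Across the 18 libraries, after each depot's mean was subtracted, the log2 levels of the 5 phagocyte members correlated with each other at r = 0.68 to 0.90 (median 0.85, 10 pairs). *Nox4* correlated with them at 0.38 to 0.69 (5 pairs). The 5 genes with the pattern most like *Cybb* were *Csf1r* (r = 0.98), *Nfam1* (0.97), *Prune2* (0.97), *Pirb* (0.97) and *Mpeg1* (0.97). *Csf1r* encodes the receptor for macrophage colony stimulating factor, and *Mpeg1* a pore-forming protein of macrophages. The 5 most like *Nox4* were *Oma1* (0.91), *Dync2li1* (0.86), *Cdca5* (0.85), *Kcne4* (0.85) and *Ankrd55* (0.85). These values describe points that share libraries, depth and genotype.

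The activators and partners of the enzyme were taken from a list of 30 genes, of which 28, 29 and 28 were abundant enough to test in iWAT, eWAT and BAT. By edgeR, 0, 0 and 2 of them fell, against 0.0206%, 0.208% and 1.07% of all genes, and 0 rose. At an unadjusted p below 0.05, 21, 15 and 24 were lower, against 9.29%, 7.82% and 8.64% of all genes. DESeq2 called 14, 3 and 13 lower, against 3.42%, 1.23% and 2.65% of all genes. The median log2 fold changes were -0.98, -0.43 and -1.13. The 2 that fell in BAT were *Itgb2*, which encodes the common beta chain of the leukocyte integrins, from 36.5 ± 5.88 to 9.32 ± 1.83 CPM (SD, n = 3; log2 fold change -1.97 ± 0.21, edgeR adjusted p = 0.00463), and *C5ar1*, the receptor gene for the complement fragment that primes the burst, from 37.5 ± 7.66 to 12.2 ± 4.604 CPM (-1.62 ± 0.28, adjusted p = 0.0298). In iWAT these genes had estimates of -1.55 ± 0.51 and -1.13 ± 0.49, and in eWAT of -0.23 ± 0.10 and -0.20 ± 0.12, none of which passed. Both are also leukocyte genes.

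Of 7 transcription factors known at phagocyte oxidase promoters, 6 were tested in each depot. Of these, 0, 0 and 1 fell in iWAT, eWAT and BAT, against 0.0206%, 0.208% and 1.07% of all genes. *Spi1*, encoding PU.1, fell in BAT from 15.2 ± 3.53 to 5.06 ± 1.37 CPM (-1.58 ± 0.28, edgeR adjusted p = 0.0314). Its estimates were -1.53 ± 0.42 in iWAT and -0.26 ± 0.10 in eWAT, where it did not pass (edgeR adjusted p = 0.184 and 0.220). At an unadjusted p below 0.05, 2, 1 and 2 factors were lower, against 9.29%, 7.82% and 8.64% of all genes. The list medians were -0.27, -0.40 and -0.20. *Cebpe*, a factor of granulocytes, was not tested in any depot and had no count in BAT.

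Of the 13 other subunits and relatives of the enzyme, *Rac1* among them, 9, 9 and 7 were tested and 0 were called in any depot. The list medians were -0.02, 0.25 and -0.14. In eWAT 1 was higher at an unadjusted p below 0.05 and by DESeq2, the dual oxidase maturation factor *Duoxa1* (0.99 ± 0.28, edgeR adjusted p = 0.113). Of the genes with the largest estimates in this list, the dual oxidase *Duox1* in iWAT had an estimate of -1.29 ± 0.68, and *Rac3*, a further GTPase of the Rac family, of -0.47 ± 0.26 in eWAT. *Nox3* had no count in any depot, and *Noxa1* none in iWAT and BAT.

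Enzymes that take up superoxide or hydrogen peroxide were read from a list of 11, of which 10 were tested in each depot. By edgeR 1 rose, in eWAT, and 0 fell, while DESeq2 called 0, 1 and 1 higher and 0 lower in iWAT, eWAT and BAT. At an unadjusted p below 0.05, 3, 2 and 1 were higher and 0, 1 and 0 lower. The share of all genes higher at that unadjusted level was not computed, so the counts of higher genes cannot be set against it. The gene that rose by edgeR was *Sod3*, the extracellular superoxide dismutase, which rose in eWAT from 589 ± 53.9 to 988 ± 92.7 CPM (0.75 ± 0.13, adjusted p = 0.0432), with estimates of 0.36 ± 0.20 in iWAT and -0.06 ± 0.17 in BAT. The list medians were 0.28, 0.16 and 0.10. *Gpx3*, a secreted glutathione peroxidase named after its values were seen, had estimates of 1.54 ± 0.48 (iWAT), 0.11 ± 0.13 (eWAT) and 1.001 ± 0.20 (BAT; edgeR adjusted p = 0.214, 0.745 and 0.0516). It was the gene DESeq2 called in BAT (adjusted p = 1.56e-05), where its mean level was 2011 ± 398 CPM in WT and 4024 ± 86.2 CPM in C6KO, and 3 of the 10 tested genes had estimates below 0 there. *Mpo*, the myeloperoxidase of neutrophil granules, averaged at most 0.0393 CPM in any group.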

How the data were processed

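RNA-seq libraries of iWAT, eWAT and BAT from WT and C6KO mice on HFD were grouped by their labels, 3 per genotype and depot. The authors aligned reads with STAR at default settings to mm10 and counted reads in exons by HOMER, with a single transcript standing for each gene, and the deposited values are raw counts. Strandedness was not stated. For 2619 of 25124 genes the depot tables list different transcripts, so *Ncf1* was left out of level contrasts with BAT.

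Counts were scaled by TMM and tested by edgeR's quasi-likelihood test (edgeR 4.0.16, R 4.3.3) within a depot, after its filter on low counts left 14533, 14889 and 13595 genes. Depot contrasts and interactions used all 18 libraries and 15866 genes. Calls needed a Benjamini-Hochberg adjusted p below 0.05 and, except for interactions, a 1.5-fold change. DESeq2 1.42.0, other scalings, no filter, a joint fit, a replicate block and leaving out each library were the alternatives. The scripts were tested on simulated data. Relative levels used log2(CPM + 0.5). Named genes were the members, *Rac1*, the list genes called in any depot, otherwise at most 4 per list with the largest absolute log2 fold change, and the 5 genes with the pattern most like *Cybb* and *Nox4*. Some genes of the lists are not reported here. The members and lists were chosen with earlier results of these data known. Replicate numbers are not stated to pair WT with C6KO, so the main fit had no block. No 2 libraries held identical values. The labels call the libraries biological replicates. With 3 per group, their spread limits every p, and BAT had the fewest reads.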

Additional observations from a re-analysis of the deposited data

How the results depend on the processing

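Over 216 fold changes of the 6 members under alternatives, 0 changed sign, 190 stayed on the same side of the threshold, 22 became called and 4 were no longer called. The number of members called in iWAT (0) was 4 by DESeq2, 2 in the fit of all 18 libraries and 0 to 5 when 1 library was left out. It was 5 without C6KO replicate 3, when the genes called rose from 4 to 1278. In eWAT (0) it was 1 by DESeq2, 2 without the filter on low counts and 0 to 1 when 1 library was left out. In BAT (1) it was 3 by DESeq2, 2 without the filter, 2 in the fit of all 18 libraries and 0 to 1 when 1 library was left out. The genes called over the whole table were 4 in iWAT against 666 by DESeq2, 32 without the filter, 366 in the fit of all libraries and 3 to 1278 when 1 library was left out. They were 111 in eWAT (80 higher, 31 lower) against 619 by DESeq2, 67 with total counts as the scaling (39 higher, 28 lower), 321 without the filter, 4 in the fit of all libraries and 2 to 347 when 1 library was left out. They were 168 in BAT against 547 by DESeq2, 525 in the fit of all libraries and 28 to 178 when 1 library was left out. The causes were not tested. Members with a depot difference between iWAT and eWAT were 0, and 0 to 3 when 1 library was left out. Members with a level difference between WT depots were 6 for iWAT against eWAT, 3 for iWAT against BAT and 4 for eWAT against BAT, and 5 to 6, 3 to 4 and 4 to 5 over all alternatives run. Replicate numbers are not stated to pair WT with C6KO. Deviations from the group means in libraries of the same number correlated at 0.022 to 0.037 (iWAT), -0.104 to 0.161 (eWAT) and -0.603 to -0.244 (BAT). With 3 libraries per group these values cannot show whether the numbers pair libraries. With the replicate block 1, 2 and 1 members and 62, 414 and 113 genes were called in these depots. Depth was lowest in BAT, where *Ncf4* rested on 7 to 41 counts per library.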
